A study of Mus musculus with 77 samples.

Results

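The genes described here are 10 members of the Notch pathway. They comprise the ligands Jag1, Jag2 and Dll1, the receptors Notch1, Notch2, Notch3 and Notch4, and the target genes Hes1, Hes5 and Hey1. The members were found in the data by gene symbol. All 10 had a row among the 16587 genes of the BNST AGO2 mRNA data, and 6 of them (Jag1, Jag2, Notch1, Notch2, Notch4 and Hes1) had a row among the 13084 genes of the blood mRNA data. Dll1, Notch3, Hes5 and Hey1 were not analysed here for blood.

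Notch signalling passes between cells that touch each other. A ligand of the Jagged or Delta-like family on one cell binds a Notch receptor on its neighbour, which is then cut by ADAM10 and by the gamma-secretase complex, and the freed intracellular part of the receptor joins the DNA-binding protein RBPJ to switch on genes such as those of the Hes and Hey families. Hes and Hey proteins are transcriptional repressors. In the brain the pathway is best known for keeping neural progenitors undifferentiated, and it also acts in glia, blood vessels and mature neurons.

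The study exposed male mice to chronic social defeat stress (CSDS), in which a mouse is repeatedly attacked by an aggressor and otherwise lives beside it. Defeated mice that later avoided a social target more than same-strain controls were termed susceptible and the others resilient. The BNST (bed nucleus of the stria terminalis), a forebrain region that takes part in anxiety, was dissected 6 to 8 days after CSDS, and RNA bound to AGO2, the protein that holds microRNAs (miRNAs) on their target mRNAs, was pulled down and sequenced. The BNST libraries came from mice labelled C57BL/6Crl (B6; C57BL/6NCrl in the study's methods), each from a pool of 3 BNSTs, with 5 control, 5 resilient and 4 susceptible pools for mRNA. Blood mRNA was measured in single mice, with 5 control, 5 resilient and 5 susceptible B6 mice and 5 control and 5 susceptible mice labelled DBA/2Crl (D2; DBA/2NCrl in the study's methods). All mice were 8 weeks old at dissection, and none carried an introduced allele according to the labels. Control mice lived beside an unfamiliar neighbour behind a divider and were never attacked. The defeated mice had been picked from the extremes of the behaviour, and too little blood was had from D2 resilient mice for a group of them. No library of total RNA was analysed here beside the AGO2-bound RNA, so a difference in AGO2-bound mRNA may reflect the amount of the mRNA, its binding to AGO2, or both, and in pooled tissue or blood, fewer cells of a type and less RNA per cell cannot be told apart.

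The miRNAs of the miR-34 and miR-449 family recognise their targets by a shared seed, bases 2 to 8 of the mature miRNA. The mature sequences held by the RefSeq table for GRCm38.p6 are shown because the seed links them to the Notch members, with the seed in capitals. The table was used for 4 of these miRNAs, and miR-34c-5p is named only.
miR-34a-5p: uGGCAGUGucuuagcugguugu
miR-34b-5p: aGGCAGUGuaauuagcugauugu
miR-449a-5p: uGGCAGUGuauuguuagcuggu
miR-449c-5p: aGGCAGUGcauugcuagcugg

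The complement of this seed, CACTGCC, was searched on the transcribed strand in the longest annotated 3′ UTR of each member (GRCm38, GENCODE M21). It occurred 10 times in 5 of the 10 members, with 1 match in Jag1, 2 in Dll1, 3 in Notch1, 2 in Notch2 and 2 in Notch4. Jag2, Notch3, Hes1, Hes5 and Hey1 held 0 matches. For comparison, 19.5% of the 13932 AGO2 mRNA genes with an annotated 3′ UTR held at least 1 match. Both matches of Notch4 lay well inside the gene, which ends at position 34588503 of chromosome 17. They belong to the transcript with the longest annotated 3′ UTR (3337 bases). Whether they lie in the 3′ UTR of other Notch4 transcripts was not examined, so Notch4 counts among the 5 only by that transcript. The sites of the ligands, and for the receptors the Notch2 site that is followed by an adenine, are shown 5′ to 3′ with the match in capitals, since the ligands are the genes with matches whose AGO2-bound level was called different.
Jag1, chr2:137081660-137081688, minus strand: gccgtagagtaCACTGCCtgccttaagtg
Dll1, chr17:15367848-15367876, minus strand: gaggcgcccgaCACTGCCagcctaggctt
Dll1, chr17:15367723-15367751, minus strand: taggaagcacgCACTGCCcacacgtctat
Notch2, chr3:98149594-98149622, plus strand: gaagaagacaaCACTGCCagtcatacatc

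RBPJ binds DNA at a core written GTGGGAA. This core was searched on both strands in the window from 250 bases before to 50 bases after the start of each gene in the RefSeq promoter table. The table gave 9 windows for 8 of the members, and Hes1 and Hey1 are named only. Only the window of Hes5, among these 9, held the core, and it held it 2 times. Of all 32851 promoter windows of this length, 6.38% held it. The Hes5 window (chr4:154960673-154960972, plus strand of GRCm38.p6) is shown with the cores in capitals. The first, 226 bases before the start, lies on the minus strand and so reads TTCCCAC, and the second begins 83 bases before the start on the plus strand. A match of letters is a description and does not show that RBPJ was bound.
Hes5 window: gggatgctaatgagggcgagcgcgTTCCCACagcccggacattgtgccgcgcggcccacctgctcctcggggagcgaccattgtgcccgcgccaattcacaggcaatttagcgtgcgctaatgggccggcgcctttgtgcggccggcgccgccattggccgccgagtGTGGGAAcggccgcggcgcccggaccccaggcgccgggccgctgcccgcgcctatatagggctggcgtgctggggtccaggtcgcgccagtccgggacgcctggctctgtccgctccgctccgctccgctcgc

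Reads on genes ranged from 3701281 to 10659882 per BNST pool and from 9751603 to 15878495 per blood sample, as recovered from the deposited values, all of which returned to whole reads. The known markers of the tissue were present. The 8 neuron markers summed to between 1650 and 2640 CPM (reads scaled to library size) in the BNST pools, and of 8 BNST markers only Cartpt had 0 reads in 1 pool. Markers of neighbouring ventricular tissue differed between the groups. Of the 4 ependyma markers measured, 3 (Foxj1, Tmem212 and Ccdc153) were called lower in both defeated groups than in controls, and the list summed to 16.3 to 36.4 CPM in control, 9.48 to 28.7 CPM in resilient and 9.58 to 14 CPM in susceptible pools. Of the 8 choroid plexus markers, 1 was called lower in resilient and 6 in susceptible pools, and the list summed to 140 to 373, 175 to 317 and 143 to 272 CPM. Folr1, Aqp1, Kcnj13 and Tmem212 had 0 reads in 2, 4, 4 and 1 of the 14 pools. Some of the other lists also summed lower in susceptible than in control pools. For neurons 5 of 8 markers were called lower there and 0 higher. The neuron markers summed to 2230 to 2640 CPM in control, 1990 to 2380 CPM in resilient and 1650 to 2180 CPM in susceptible pools. The 8 astrocyte markers (3 called lower and 1 higher) summed to 1690 to 1940 CPM in control, 1550 to 1770 CPM in resilient and 1310 to 1640 CPM in susceptible pools. The 8 oligodendrocyte markers (4 lower and 1 higher) summed to 3740 to 5500, 2390 to 4570 and 2310 to 3780 CPM. The 8 mural cell markers (2 lower, 0 higher) summed to 157 to 178, 125 to 180 and 141 to 147 CPM. Sums of microglia and BNST markers were not lower, with medians of 176 and 422 CPM in susceptible and 171 and 378 CPM in control pools. Those of oligodendrocyte progenitors overlapped (152 to 169 CPM in susceptible and 152 to 176 CPM in control pools).

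The level of each member was first compared per length, as reads per kb of exon scaled to library size (RPKM), since CPM values of genes of different length cannot be set against each other. Among the AGO2-bound mRNAs of the 5 control pools, the target Hes5 stood highest at 77.0 ± 12.4 RPKM (SD, n = 5), above 99.0% of genes. Hey1 followed at 14.8 ± 1.26 RPKM. The next levels were 10.3 ± 1.56 for Jag1, 9.74 ± 1.21 for Hes1 and 8.48 ± 1.51 for Jag2. The pools of Hes5 lay above all pools of Hey1 and those of Hey1 above all pools of Jag1, while Jag1, Hes1 and Jag2 overlapped their neighbours in this order. Dll1 stood at 6.01 ± 0.996 RPKM, near the middle of all genes (above 49.9% of them). The receptors had the lowest means. Notch1 had 4.26 ± 0.525 RPKM, and its pools overlapped those of Dll1. Notch2 had 3.72 ± 0.700, with pools overlapping those of Notch1. The lengths are those of all annotated exons merged (14232 bases for Notch1), and the order depends on them. Notch3 (1.62 ± 0.433) lay below all pools of Notch2, and Notch4 (0.614 ± 0.0964), a receptor best known from blood vessels, lay below all pools of Notch3.

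**Figure D1:**
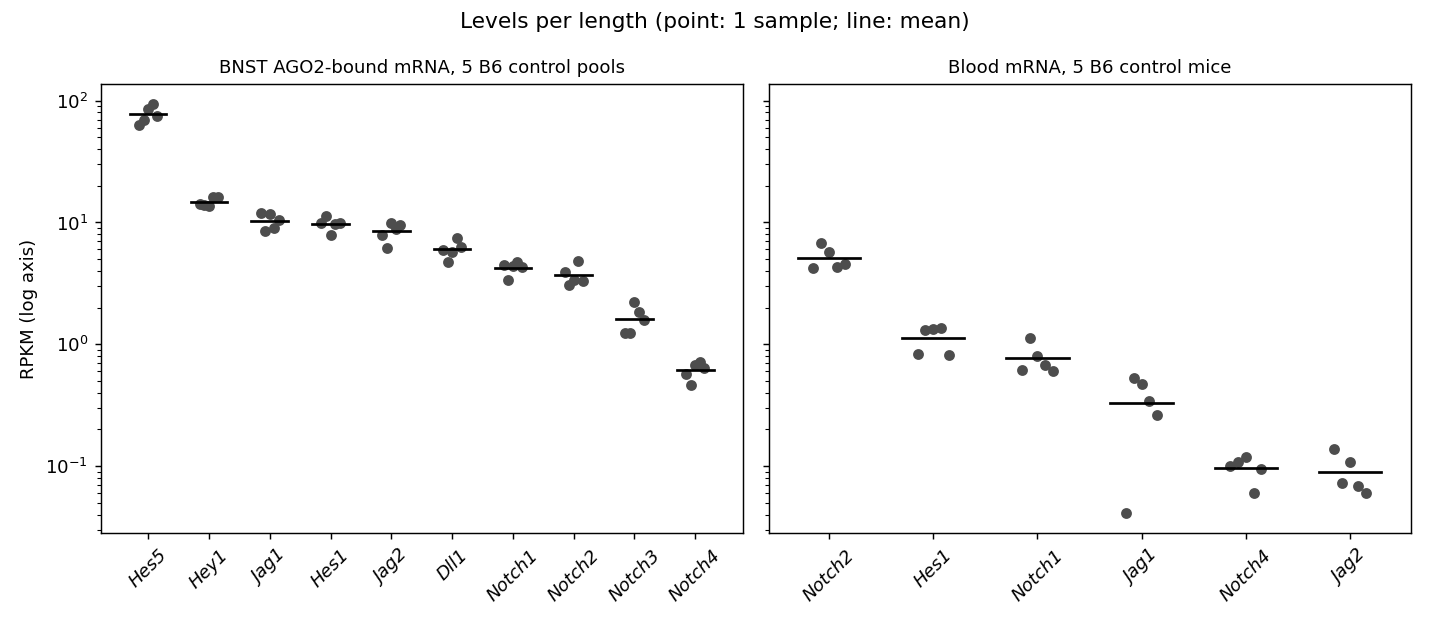
Levels per length of the Notch members, in RPKM on a log axis, for AGO2-bound mRNA of the 5 BNST control pools (left) and blood mRNA of the 5 B6 control mice (right). Points are single samples and lines are means. Hes5 stands highest in BNST at 77.0 and Notch2 highest in blood at 5.13.

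In blood the order was different, although AGO2-bound and total RNA levels are separate measurements and were not tested against each other. Notch2 was the highest of the 6 members in blood, at 5.13 ± 1.11 RPKM in B6 control mice (SD, n = 5) and 5.45 ± 0.791 RPKM in D2 control mice, above 68.3% and 69.0% of genes. In both strains it lay above every value of the next member, Hes1 (1.13 ± 0.280 and 1.37 ± 0.564 RPKM), and Hes1 overlapped Notch1 (0.766 ± 0.217 and 0.882 ± 0.144). Jag1 stood at 0.330 ± 0.193 and 0.376 ± 0.136 RPKM. Jag2 and Notch4 were the lowest and overlapped each other, with 2 to 20 and 3 to 22 reads per mouse, so that differences in these genes had low precision.

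Each pair of BNST groups was then compared gene by gene to ask whether AGO2-bound mRNA differed after CSDS. A gene was called when p was under 0.05 in limma and the fold change was at least 1.2, the criteria the study used. Relative to controls, 2 of the 10 members were called in resilient pools, Jag1 and Hey1, both lower. Among all genes 17.7% were called in this comparison, 8.65% higher and 9.04% lower, so the share of the Notch members (20%) was near that of all genes. In susceptible pools 3 of the 10 members were called, Jag1 and Hey1 lower and Dll1 higher, against 18.9% of all genes (9.65% higher and 9.28% lower). No member reached an adjusted p under 0.05 (Benjamini-Hochberg over all genes, limma), and only the called members, 2 and 3, had an unadjusted p under 0.05, whereas 1.95% of all genes had an adjusted p under 0.05 in resilient and 4.02% in susceptible pools. Between susceptible and resilient pools 0 of the 10 members were called, 0 had an unadjusted p under 0.05 in limma, and 2.14% of all genes were called. The median log2 fold change of the 10 members was 0.02 for resilient and 0.03 for susceptible pools, beside -0.02 and -0.01 for all genes. Both comparisons with the controls use the same 5 control pools.

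**Figure D2:**
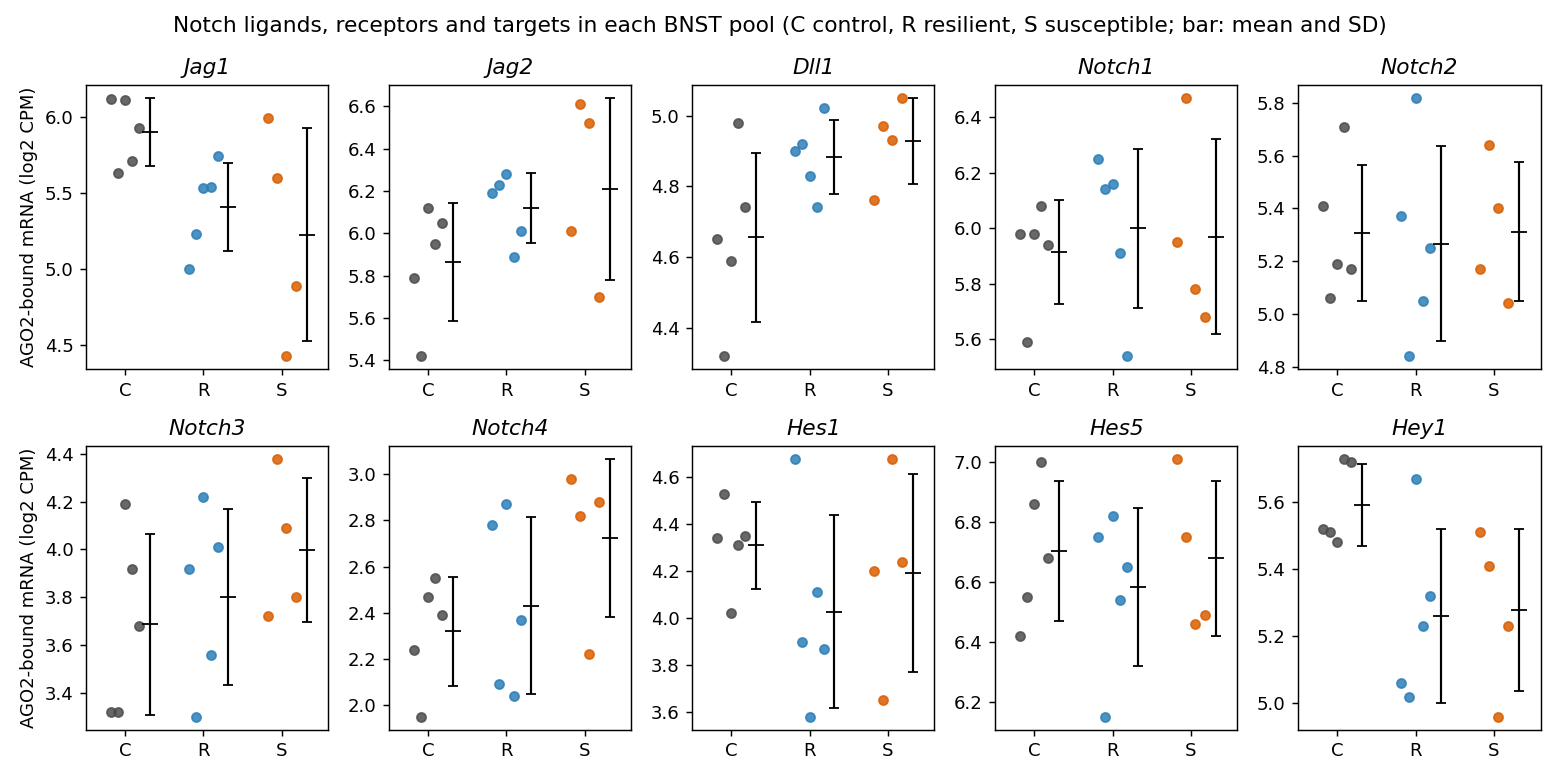
AGO2-bound mRNA of the 10 Notch members in log2 CPM, 1 panel per gene with its own axis. Points are BNST pools (C, 5 control; R, 5 resilient; S, 4 susceptible) and bars show the mean and SD. Jag1 ranges from 5.63 to 6.12 in the control pools and reaches down to 4.43 in the susceptible pools.

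Among the ligands, Jag1 (ENSMUSG00000027276, chromosome 2 of GRCm38 from 137081456 to 137116644, minus strand) is expressed by many cell types and binds several Notch receptors. It had 6.12, 5.63, 6.11, 5.71 and 5.93 log2 CPM in control pools 1 to 5. Resilient pools 1 to 5 had 5.00, 5.23, 5.53, 5.54 and 5.74, and susceptible pools 1 to 4 had 5.99, 5.60, 4.43 and 4.89. Of the resilient pools 4 of 5, and of the susceptible pools 3 of 4, lay below every control pool, and in each group 1 pool overlapped the controls. The susceptible pools were widely spread (SD 0.70, against 0.22 in controls and 0.29 in resilient pools). On the log2 scale Jag1 fell by 0.49 in resilient pools (SE 0.23, 95% interval -0.97 to -0.02, limma adjusted p = 0.227, exact p = 0.0238) and, in susceptible pools, by 0.67 (SE 0.24, 95% interval -1.18 to -0.17, adjusted p = 0.116, exact p = 0.0635). The exact p is that of a two-sided permutation of the pools, which could not go below 0.00794. Without susceptible pool 3 the log2 fold change in susceptible pools was -0.41 and was not called. The call in resilient pools was lost without any 1 of 6 pools (values between -0.57 and -0.39 over all omissions), with the replicate block (-0.49), and when limma's mean-variance trend was dropped (-0.49). The ependyma and choroid plexus lists moved in the same direction, as did the summed astrocyte, oligodendrocyte, mural and neuron markers in susceptible pools, and their part in this difference was not tested.

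Dll1 (ENSMUSG00000014773, chromosome 17 from 15367354 to 15376872, minus strand), the Delta-like ligand known for its role in neural progenitors, moved the other way. It stood at 4.65, 4.32, 4.59, 4.98 and 4.74 log2 CPM in the control pools and at 4.76, 4.97, 4.93 and 5.05 in the susceptible pools. The resilient pools had 4.90, 4.92, 4.83, 4.74 and 5.02. All groups overlapped, since control pool 4 (4.98) was higher than all but 2 of the defeated pools. Dll1 rose by 0.27 in susceptible pools (SE 0.13, 95% interval 0.01 to 0.54, limma adjusted p = 0.221, exact p = 0.0794). That call was lost without any 1 of 7 pools, with values from 0.19 (without control pool 2) to 0.36 (without control pool 4), and when only the compared groups were fitted (0.27). In resilient pools the log2 fold change was 0.23 (SE 0.12, 95% interval -0.02 to 0.48) and was not called, except after quantile normalization (0.27) or without control pool 4 (0.31). A gene for a long noncoding RNA, A930024N18Rik, overlaps Dll1 on the other strand, and the strand setting of the counting was not given in the sources used here.

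Jag2 (ENSMUSG00000002799, chromosome 12 from 112907819 to 112929776, minus strand), the second Jagged ligand, was not called in any BNST comparison. It had 5.79, 5.42, 6.12, 5.95 and 6.05 log2 CPM in control pools, 6.19, 6.23, 6.28, 5.89 and 6.01 in resilient pools, and 6.01, 6.61, 6.52 and 5.70 in susceptible pools. The log2 fold changes were 0.25 in resilient (SE 0.16, 95% interval -0.09 to 0.60) and 0.34 in susceptible pools (SE 0.17, 95% interval -0.02 to 0.71). In susceptible pools a call was made with sample weights (0.37) and without control pool 3 (0.41), susceptible pool 1 (0.41) or susceptible pool 4 (0.51). The value was smaller, and not called, without susceptible pool 2 (0.21). In resilient pools it was 0.14 without control pool 2.

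Because Jag1 and Jag2 differed in sign, their difference was taken within each pool, a measure that was chosen after these values had been seen and was given no test. Log2 Jag2 minus log2 Jag1 was -0.33, -0.21, 0.01, 0.24 and 0.12 in control pools 1 to 5. It was 1.19, 1.00, 0.75, 0.35 and 0.27 in resilient pools 1 to 5, each above every control pool. In susceptible pools 1 to 4 it was 0.02, 1.01, 2.09 and 0.81, with 3 of 4 above every control pool and susceptible pool 1 within the controls. How many other pairs of genes separate the groups in this way was not counted. The means were -0.03 ± 0.23 (SD, n = 5), 0.71 ± 0.40 (n = 5) and 0.98 ± 0.85 (n = 4). These are differences of log2 CPM and are not a ratio of molecules, since the genes differ in length.

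**Figure D3:**
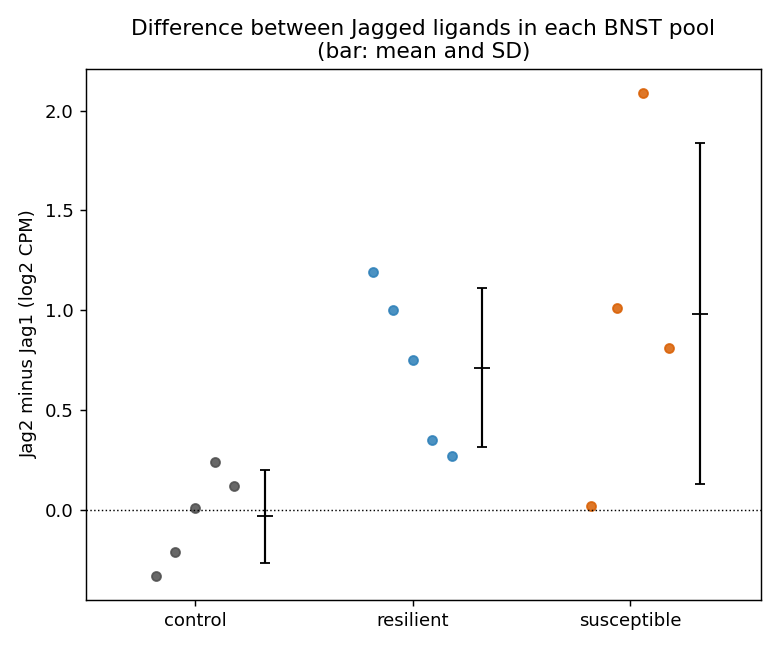
Difference between log2 CPM of Jag2 and of Jag1 in each BNST pool. Points are pools, bars show mean and SD, and the dotted line marks equal log2 CPM. The 5 resilient pools lie between 0.27 and 1.19, above the control pools, which lie between -0.33 and 0.24.

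None of the 4 receptors was called in any BNST comparison. Notch1, the most studied receptor, ranged from 5.54 to 6.47 log2 CPM over the 14 pools, with log2 fold changes of 0.09 in resilient (SE 0.16, 95% interval -0.24 to 0.41) and 0.05 in susceptible pools (SE 0.16, 95% interval -0.29 to 0.40). Notch2 ranged from 4.84 to 5.82 log2 CPM, with log2 fold changes of -0.04 (95% interval -0.40 to 0.32) and 0.00 (95% interval -0.38 to 0.38). The intervals of Notch1 and Notch2 thus leave room for changes of up to about 0.41 on the log2 scale. Notch3, the receptor known from mural cells of vessels, ranged from 3.30 to 4.38 log2 CPM and had log2 fold changes of 0.12 (95% interval -0.32 to 0.55) and 0.31 (95% interval -0.15 to 0.77). Other annotated genes overlap Notch1, Notch2 and Notch3. Those at Notch1 and Notch3 (for Notch3 the antisense gene Gm17276) lie on the other strand, and without strand their reads cannot be told apart. The one at Notch2, Gm42820, lies on the same strand, so strand would not separate its reads.

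Notch4 (ENSMUSG00000015468) rested on 17 to 78 reads per pool. It had 2.24, 1.95, 2.47, 2.55 and 2.39 log2 CPM in control pools and 2.98, 2.82, 2.22 and 2.88 in susceptible pools, of which 3 of 4 lay above every control pool. Its log2 fold change in susceptible pools was 0.40 (SE 0.23, 95% interval -0.09 to 0.90, limma adjusted p = 0.334, exact p = 0.0794) and was not called, except without susceptible pool 3 (0.57). In resilient pools it was 0.11 (SE 0.22). Of 8 endothelial markers, 1 was called higher (Tie1) and 1 lower (Flt1) in susceptible pools, and that list summed to 144 to 180 CPM in control and 123 to 157 CPM in susceptible pools.

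Among the targets, Hey1 (ENSMUSG00000040289, chromosome 3 from 8663359 to 8667256, minus strand) was lower in both defeated groups. It had 5.52, 5.51, 5.48, 5.73 and 5.72 log2 CPM in control pools, 5.06, 5.02, 5.67, 5.23 and 5.32 in resilient pools, and 5.51, 5.41, 4.96 and 5.23 in susceptible pools. Of the resilient pools 4 of 5 and of the susceptible pools 3 of 4 lay below every control pool. Hey1 fell by 0.33 in resilient pools (SE 0.13, 95% interval -0.61 to -0.06, limma adjusted p = 0.161, exact p = 0.0317) and, in susceptible pools, by 0.32 (SE 0.14, 95% interval -0.61 to -0.03, adjusted p = 0.197, exact p = 0.0159). The call in resilient pools was lost without resilient pool 1 or 2, and over all omissions the value lay between -0.43, when resilient pool 3 was omitted, and -0.27, when resilient pool 2 was. In susceptible pools it was lost without control pool 4 or 5 or susceptible pool 3 or 4, the smallest value being -0.21 without susceptible pool 3, and with the replicate block (-0.29). Susceptible against resilient pools differed by 0.02 (95% interval -0.28 to 0.31). The marker lists that moved with Jag1 moved in the direction of Hey1 too. In susceptible pools the neuron, ependyma, astrocyte and mural sums lay below every control pool. Their part in the Hey1 difference was not tested.

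The other targets were not called. Hes5 ranged from 6.15 to 7.01 log2 CPM over all pools, with log2 fold changes of -0.12 in resilient (SE 0.14, 95% interval -0.42 to 0.18) and -0.02 in susceptible pools (SE 0.15, 95% interval -0.34 to 0.29). Hes5, whose start window holds the RBPJ core 2 times, was the most abundant member, and no difference in it was detectable. The annotated gene Gm20421 overlaps it on the other strand. Hes1 had 4.34, 4.53, 4.02, 4.31 and 4.35 log2 CPM in control pools and 4.68, 3.90, 3.58, 4.11 and 3.87 in resilient pools. Of the resilient pools 3 lay below and 1 above every control pool. The log2 fold changes of Hes1 were -0.28 in resilient (SE 0.20, 95% interval -0.70 to 0.14) and -0.12 in susceptible pools (SE 0.21, 95% interval -0.56 to 0.33), with a call in resilient pools only when resilient pool 1 was left out (-0.44).

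**Figure D4:**
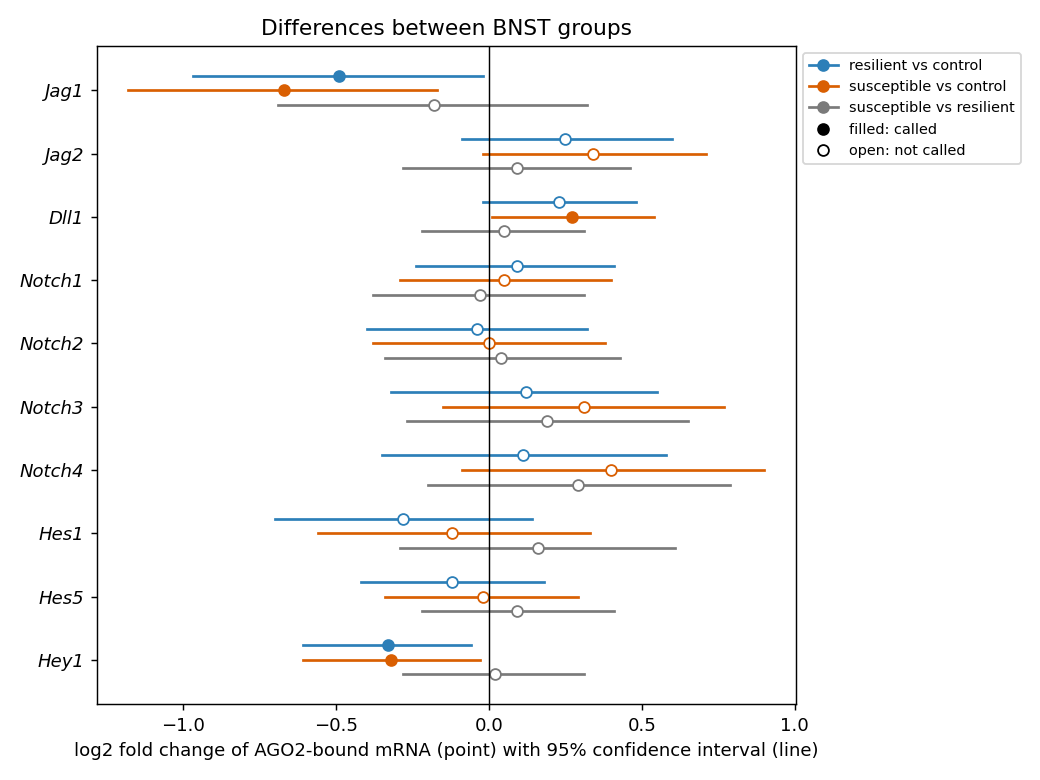
Log2 fold change of AGO2-bound mRNA of each Notch member (x axis) with its 95% confidence interval from limma, for the 3 comparisons of BNST groups. Filled points were called and open points were not. Jag1 and Hey1 lie left of 0 in both comparisons with the controls, and the interval of every susceptible vs resilient difference includes 0.

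The members with seed matches for miR-34 and miR-449 did not move together. Jag1, with 1 match, was called lower, and Dll1, with 2, was called higher in susceptible pools. Notch1 and Notch2 were not called, nor was Notch4, whose matches lie well inside the gene. Of the 7 miRNAs of this family in the AGO2 miRNA data (5 control, 5 resilient and 3 susceptible pools), 1 was called between resilient pools and controls and 2 between susceptible pools and controls, beside 9.52% and 4.70% of all 788 miRNAs. Those were miR-34b-3p, which has another seed, in both comparisons (log2 fold changes -1.04 and -1.58) and miR-34c-5p in susceptible pools (-1.28, SE 0.48, limma adjusted p = 0.884, exact p = 0.0893). The miRNAs whose sequences are shown above were not called against controls, with susceptible log2 fold changes of 0.50 for miR-34a-5p, -0.88 for miR-34b-5p, 0.21 for miR-449a-5p and -0.12 for miR-449c-5p. For miR-34b-5p a call was made with the replicate block (-1.29) and without control pool 5 or susceptible pool 4, and over all omissions its value lay between -1.48 (without susceptible pool 4) and -0.36 (without susceptible pool 2). The miR-34a-5p difference was opposite in sign to that of miR-34c-5p. The miRNA data hold no susceptible pool 3, the number of the mRNA pool with the lowest Jag1 (4.43 log2 CPM). The mRNA and miRNA differences in susceptible pools thus do not cover the same set of pools.

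A further 51 genes of the pathway were examined as a list, of which 48 had a row in the BNST data. In resilient pools 9 of the 48 were called (2 higher and 7 lower), and in susceptible pools 6 (1 higher and 5 lower), beside 17.7% and 18.9% of all genes. The median log2 fold changes of the 48 were 0.01 and -0.03. Between susceptible and resilient pools 1 of the 48 was called, beside 2.14% of all genes. It was Dtx3l (-0.88, SE 0.38, limma adjusted p = 1.00), an E3 ubiquitin ligase of the Deltex family. That call was lost with the replicate block (-0.86) and without any 1 of 5 pools (resilient pools 2, 4 and 5 and susceptible pools 2 and 3), with values from -1.09 (without susceptible pool 4) to -0.58 (without susceptible pool 2). Among the genes that act on ligands, Mib2, an E3 ubiquitin ligase that drives uptake of Notch ligands, rose by 0.53 in resilient (SE 0.14, limma adjusted p = 0.0510) and, in susceptible pools, by 0.59 (SE 0.14, adjusted p = 0.0322). In the main fit Mib2 was the only pathway gene under an adjusted p of 0.05 in BNST. Its call, which rests on the unadjusted p, held without any 1 of the 14 pools. Adjusted p of single genes is given for the main fit only, and the number of genes under 0.05 depended on the setting. In susceptible pools that number was 666 in the main fit and 209 without the mean-variance trend. Neurl1b, a ligase of similar function, fell by 0.42 in susceptible pools (SE 0.15, limma adjusted p = 0.115).

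Among the genes that act on the receptors, Adam10, the protease that makes the first activating cut, fell by 0.29 in resilient (SE 0.10, limma adjusted p = 0.136) and, in susceptible pools, by 0.28 (SE 0.11, adjusted p = 0.155). In both comparisons no defeated pool overlapped a control pool (exact p = 0.00794), and the share of all genes that separated so was not counted. The Adam10 call was lost without resilient pool 5 (-0.25) in the first and without susceptible pool 2 (-0.16) in the second. Lfng, a glycosyltransferase that changes which ligands a receptor answers to, fell by 0.33 in resilient pools (SE 0.10, limma adjusted p = 0.0968). Dtx1, a Deltex protein that acts on Notch receptors, fell by 0.39 there (SE 0.15, limma adjusted p = 0.164). Snw1, a partner of the Notch transcription complex that also works in splicing, fell by 0.40 in susceptible pools (SE 0.12, limma adjusted p = 0.0636).

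For each member the genes with the most similar AGO2-bound level were sought by Pearson correlation of log2 CPM over the 14 pools, which share library depth and dissection, and the coefficients are given as a description. Hey1 had the closest companions, Ctxn1, Gng7 and Gas7, each with r = 0.96. Jag1 was most like Bcl11a (r = 0.85), followed by Gm42456 (0.84) and Gm44950 (0.83). Jag2 was most like Fam234a (0.92), Dll1 like Tm7sf2 (0.91), Notch2 like Ndst1 (0.94) and Hes5 like Atp5d (0.94). For Notch1 the closest gene reached r = 0.84 (Gm30238), for Notch3 0.89 (Fzr1), for Notch4 0.92 (Mok) and for Hes1 0.87 (Mtus1). None of the 3 closest genes of any member was another Notch member. Among the members themselves, r was highest between Jag1 and Hey1 (0.76), both called lower, and lowest between Jag1 and Dll1 (-0.47). This r was taken over all pools, so the group differences for which both genes were called enter it. No r within the groups was computed for pairs of members. Both calls come from the same pools and are not counted as separate results.

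In blood, no comparison of the 6 made called a member (0 of 6 measured), and none had an unadjusted p under 0.05 in limma. Among all genes 2.11% were called in B6 resilient against control mice, 4.50% in B6 susceptible against control mice, 2.03% in B6 susceptible against resilient mice and 1.57% in D2 susceptible against control mice. Between D2 and B6 control mice 26.4% of all genes and 0 of the 6 members were called. With only 6 members, of which Jag1, Jag2 and Notch4 rest on few reads, this count is not set apart from that share. The difference of the susceptible response between D2 and B6 was called for 5.37% of all genes and 0 of the 6 members. The values of D2 mice follow GEO's labels, which for 2 of these mice differ from the column headings.

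**Figure D5:**
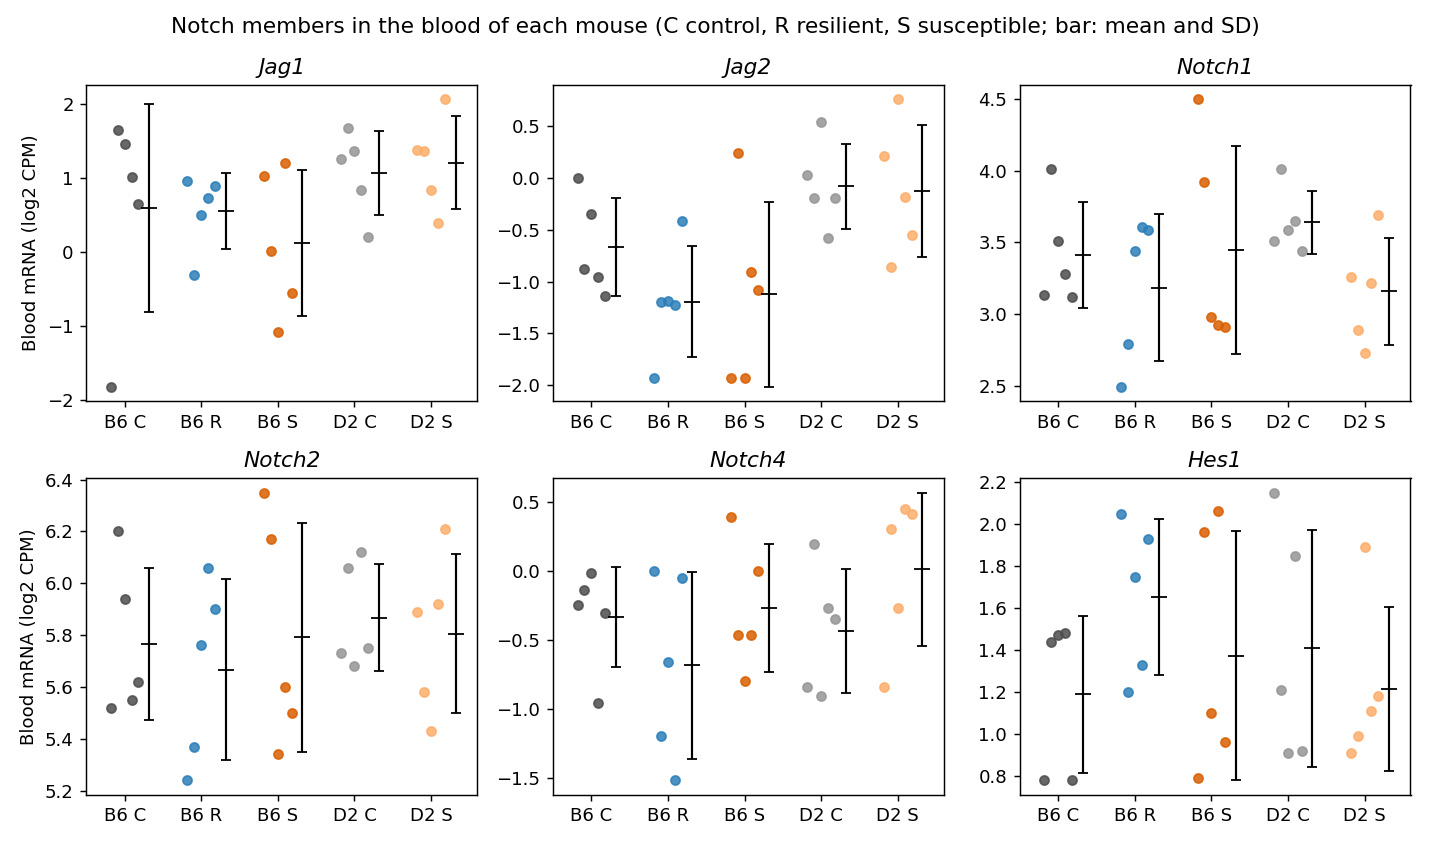
Blood mRNA of the 6 Notch members measured, in log2 CPM, 1 panel per gene with its own axis. Points are single mice of each strain and group (5 per group), and bars show the mean and SD. The groups overlap in every panel, and 1 B6 control mouse stands at -1.83 for Jag1.

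Notch1 in D2 mice came closest to a difference. D2 control mice had 3.51, 4.01, 3.59, 3.65 and 3.44 log2 CPM, and D2 susceptible mice had 3.26, 2.89, 2.73, 3.22 and 3.69, of which 4 of 5 lay below every control mouse. The log2 fold change was -0.48 (SE 0.28, 95% interval -1.06 to 0.10, limma adjusted p = 0.999, exact p = 0.0476 before any adjustment over the 6 members). It was called when only the D2 groups were fitted (-0.48) and without D2 susceptible mouse 5 (-0.61). For 1 mouse of each of these groups, GEO's label and the column heading name different groups. The labels were followed. With the groups of the column headings the log2 fold change of Notch1 was -0.03 and its difference between the strains -0.07, so the Notch1 difference in D2 mice rests on the labels of these 2 mice. Under both readings 0 members were called. Over all genes, 206 were called in D2 susceptible against control mice with the labels and 890 with the column headings. The count the paper reports for this comparison is nearer the second. Which reading is right for these 2 mice was not tested. In B6 mice Notch1 had log2 fold changes of -0.23 in resilient (95% interval -0.80 to 0.35) and 0.04 in susceptible mice (95% interval -0.54 to 0.62), and its response did not differ detectably between the strains (-0.52, 95% interval -1.34 to 0.30).

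Jag1 in blood rested on 3 to 60 reads per mouse. B6 control mice had -1.83, 1.66, 1.47, 1.02 and 0.65 log2 CPM, B6 resilient mice 0.96, -0.31, 0.50, 0.73 and 0.90, and B6 susceptible mice 1.03, 0.01, -1.09, 1.2 and -0.55. B6 control mouse 1, with 3 reads, lay below all other mice. The log2 fold change in B6 susceptible mice was -0.47 (SE 0.53, 95% interval -1.56 to 0.62) and not called. Without that mouse it was -1.08 and called. Notch2, the most abundant member, had log2 fold changes of -0.10 in B6 resilient (95% interval -0.51 to 0.31), 0.03 in B6 susceptible (95% interval -0.38 to 0.43) and -0.06 in D2 susceptible mice (95% interval -0.47 to 0.35). Hes1 had a log2 fold change of 0.46 in B6 resilient mice (SE 0.29, 95% interval -0.14 to 1.07), of which 3 of 5 lay above every control mouse.

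Of the 51 further pathway genes, 40 had a row in blood. In B6 susceptible against control mice 1 was called, Dtx2 (0.77, SE 0.32, limma adjusted p = 0.968), beside 4.50% of all genes. That call was lost without B6 control mouse 1 or 5 or B6 susceptible mouse 3 or 4. In the other comparisons of defeated with control or resilient mice and in the difference between the strains, 0 were called. Between D2 and B6 control mice 9 of 40 were called (4 higher and 5 lower in D2), beside 26.4% of all genes, and 7 of these had an adjusted p under 0.05 in limma. Higher in D2 were Pofut1, which adds fucose to Notch receptors (0.79, SE 0.17), the protease Adam17 (0.32, SE 0.09; 0.24 and not called with the groups of the column headings), the corepressor Ctbp1 (0.68, SE 0.16) and the acetyltransferase Kat2b (0.75, SE 0.17). Lower in D2 were Dtx3l (-1.23, SE 0.17), the gamma-secretase subunit Psenen (-0.74, SE 0.21) and Mib2 (-0.64, SE 0.18).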

How the data were processed

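AGO2-bound mRNA and miRNA of BNST pools and mRNA of blood were analysed. The authors aligned the mRNA reads to GRCm38 with STAR, counted them on Ensembl exons with HTSeq, removed genes with low counts and deposited log2 CPM values made with voom of limma. For miRNAs, bowtie and miRDeep2 with miRBase were used. The authors' correction for cohorts is not in these values. Each value was returned to reads (offset 0.5 reads, tolerance 1e-04), and all were whole. Depth was 3701281 to 10659882 reads per BNST mRNA pool, 3173294 to 9404828 per miRNA pool and 9751603 to 15878495 per blood sample.

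The deposited values were fitted in R 4.3.3 with limma 3.58.1, with all groups of a table in 1 model and a mean-variance trend. Calls required p under 0.05 together with at least a 1.2-fold difference. Adjusted p-values are Benjamini-Hochberg values over all features. Single members were also tested by two-sided exact permutation of the samples. The fits were tested on simulated data. Nothing in the labels says that the blood samples or pools share animals, and p-values measure the spread between these samples.

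Members were compared per length with the exon lengths of GENCODE M21. In each table gene identifiers were matched to symbols, 16535 of 16587 in BNST and 13054 of 13084 in blood. All 10 members are named. Of the other pathway genes, those with an adjusted p under 0.05 in any comparison are named, together with the 4 smallest p among the called in each comparison, and for each member the most correlated genes among its 3 closest. The members and the lists were chosen with earlier results of these data known. Alternatives were no trend, sample weights, quantile normalization, recovered reads with TMM and voom, log2(CPM + 1), a minimum mean log2 CPM of 2, only the compared groups, the replicate block or the first part of the sample title as a term, the group names of the data columns, and leaving out each sample. Replicate numbers were not taken as pairs, because same-numbered BNST pools did not deviate together (mRNA 13 pairs, miRNA 11 pairs). The blood miRNA data and the raw reads were not used here. Plots were made in matplotlib 3.10.9 under Python 3.11.15.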

Additional observations from a re-analysis of the deposited data

Results flagged for a closer look

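Each of the 60 combinations of a member and a group of 4 or 5 samples was examined for 1 sample far from the others, by its gap to the nearest sample over the range of the group. The rule picks about 1 in 20 groups by chance, and it picked 2. In blood, Jag1 of B6 control mouse 1 stood at -1.83 log2 CPM (3 reads), with the nearest control mouse at 0.65 and a gap of 0.713 of the range. Also in blood, Hes1 of D2 susceptible mouse 3 stood at 1.89 log2 CPM (42 reads), with the nearest mouse of its group at 1.18 and a gap of 0.723 of the range. The difference of the response to defeat between D2 and B6 blood was not called for any of the 6 members in limma, with intervals as wide as -0.93 to 2.15 (Jag1). With sample weights it was called for Hes1 (-0.94).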

How the results depend on the processing

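The number of members called against controls in BNST was 2 in resilient pools and 3 in susceptible pools. In resilient pools it was 1 without a mean-variance trend and 1 with the replicate block, and between 0 and 3 when single pools were left out. It was 0 without resilient pool 2, and 1 without control pool 1, 3 or 5 or resilient pool 1 or 4. In susceptible pools the omissions gave between 1 and 4 members (1 without susceptible pool 3, 4 without susceptible pool 1). Between susceptible and resilient pools 0 members were called under every setting tried. In blood, sample weights gave 1 member called in D2 susceptible mice and 1 in the difference between strains, in both cases Hes1 (-0.59 and -0.94), and fitting only the D2 groups gave 1, Notch1. Omissions gave 0 to 1 members in B6 susceptible mice (1 without B6 control mouse 1) and in D2 susceptible mice (1 without D2 susceptible mouse 5), and 0 in the other blood comparisons. The first part of the sample title, which holds 1 to 3 mice of a group, could not be fitted for D2 against B6 control mice, and as a term it gave 0 members called elsewhere.

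Of the miR-34 and miR-449 family, 1 miRNA without a trend, against 2, was called in susceptible pools. With the replicate block 3 were called between susceptible and resilient pools, against 0. Leaving out pools gave 0 to 2 in resilient pools, 1 to 3 in susceptible pools against controls and 0 to 2 between the defeated groups. No called value changed its sign. Of 240 values of BNST members under the other settings, 4 calls were lost and 2 gained, and of 420 values with 1 pool left out 20 were lost and 6 gained. Only the members called in the main fits, 2 in resilient and 3 in susceptible pools, could lose a call, so most of these values could not. The causes were not tested. The replicate numbers of the mRNA pools and of the miRNA pools were each taken to share only a number, since deviations of same-numbered pools had correlations from -0.17 to 0.14 (13 mRNA pairs) and from -0.10 to 0.10 (11 miRNA pairs). Notch4 in BNST and Jag1, Jag2 and Notch4 in blood rest on few reads, so only large differences could be detected in them.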
